A study of Mus musculus with 17 samples.

Results

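The genes described here encode proteins of the mitochondrial ribosome. They were chosen by name. A gene was a member when at least 1 of its probe sets carried exactly 1 platform gene symbol made of Mrpl or Mrps and a number, and its probe sets with that property were averaged. The rule used no measured value, but it was chosen with earlier results of these data known. It gave 68 genes of 22180, with 43 Mrpl and 25 Mrps names, measured by 75 of 33793 probe sets. A further 7 genes with such names were left out because each of their probe sets also carried another gene's name.

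Expression was measured on 17 Affymetrix 1-colour arrays of sorted eosinophils, the granulocytes of allergic inflammation, from male and female CC10-IL13Tg mice aged 6 to 8 weeks. In this line doxycycline food (Dox) switches on an interleukin-13 transgene driven by the CC10 promoter, which is known for its activity in airway club cells. The mice were CC10-IL13Tg/Pirb-/- (PirB knockout) or littermate CC10-IL13Tg/Pirb+/+ (wildtype), so every group carried the transgene. Pirb encodes an inhibitory receptor of myeloid cells. Bone marrow eosinophils came from mice without Dox (2 wildtype and 3 knockout arrays) and from mice fed Dox for 2 weeks (3 and 3 arrays). Esophageal eosinophils came from Dox-fed mice only (3 and 3 arrays). Cells from both tissues were gated as CD45+, SiglecF+ and CCR3+, but collagenase was used on the esophagus and a needle on the marrow, so tissue and dissociation cannot be told apart. No label says whether a replicate was 1 animal or a pool, and the spread behind each p-value, which is that between these arrays, may be technical.

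The mitochondrial ribosome translates the few messages encoded by mitochondrial DNA, all of which specify subunits of the respiratory chain complexes and ATP synthase. Its proteins are encoded in the nucleus, made in the cytosol and imported, then assembled with mitochondrial rRNA into a small subunit, which decodes the message, and a large subunit, which joins amino acids. Some proteins descend from those of bacterial ribosomes, while others are found in mitochondria only. Eosinophil precursors divide and fill with granule proteins in the marrow before release.

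The promoters of the members were compared first, because genes for this ribosome are known to share control elements. RefSeq windows on GRCm38.p6, running from 250 bases before to 50 bases after the annotated start, matched 59 of the 68 members. The letters CCGGAAG, a core bound by ETS factors such as GABPA, occurred on either strand in 33.9% of the 59 members and in 9.93% of all 27025 genes of the table. The YY1 letters AAGATGGC occurred in 18.6% against 3.19%, and the NRF1 letters GCGCATGCG in 10.2% against 1.95%. The NFY letters CCAAT were found in 39.0% of members against 41.1% of all genes. The E-box letters CACGTG were found in 6.78% against 8.09%. The TATA box letters TATAAA were found in 8.47% against 15.7%. The ETS and YY1 letters can overlap at AAG, the NRF1 letters overlap their own reverse complement, and a gene counted as a match when any of its windows held the letters. The median member window had 58.0% G and C bases and 20.2 CpG pairs, against 52.8% and 7 in all genes. A gene on the opposite strand started within 1000 bases upstream of 35.6% of members and of 12.3% of all genes.

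The following stretches, written 5′ to 3′ along the gene's strand and ending before its start, show the ETS, NRF1 or YY1 letters in capitals. They come from members with no opposite start within 250 bases, and members on some chromosomes were also left out. For the ETS and NRF1 letters they show members that differed strongly between tissues and members that did not. Mrpl51 and Mrps22 were lower in esophageal eosinophils of both genotypes, and their windows hold the ETS letters.
Mrpl51 (chr6:125192070-125192156, plus strand): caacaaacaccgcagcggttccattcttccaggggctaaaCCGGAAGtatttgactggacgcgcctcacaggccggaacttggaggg
Mrps22 (chr9:98601680-98601730, minus strand): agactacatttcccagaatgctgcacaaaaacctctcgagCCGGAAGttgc
Mrps16 and Mrpl48 hold the same letters on the opposite strand, with a large and a small tissue difference respectively.
Mrps16 (chr14:20393518-20393604, minus strand): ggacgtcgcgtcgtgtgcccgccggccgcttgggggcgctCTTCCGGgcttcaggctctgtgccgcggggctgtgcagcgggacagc
Mrpl48 (chr7:100583131-100583204, minus strand): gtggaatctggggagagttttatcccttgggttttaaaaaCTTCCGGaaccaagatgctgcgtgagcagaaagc
Mrpl39 and Mrpl10 hold the NRF1 letters, in Mrpl39 on both strands at overlapping positions, again with a large and a small difference.
Mrpl39 (chr16:84735320-84735409, minus strand): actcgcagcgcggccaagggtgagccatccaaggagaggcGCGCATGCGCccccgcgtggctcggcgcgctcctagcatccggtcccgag
Mrpl10 (chr11:97041407-97041495, plus strand): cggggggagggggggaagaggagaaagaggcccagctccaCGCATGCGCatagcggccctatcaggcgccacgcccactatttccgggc
Mrpl36 holds the YY1 letters, read on the opposite strand, and also the E-box letters, left in lower case. Its mean tissue difference was -0.46. It was the only member with YY1 letters before its start that was not left out, so no large and small difference can be compared.
Mrpl36 (chr13:73330939-73331008, plus strand): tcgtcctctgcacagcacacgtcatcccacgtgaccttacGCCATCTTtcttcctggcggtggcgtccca

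The shares of these letters can be read against the tissue result described next. Of the members with a window, 29 were lower in the esophagus in the test of the mean of both genotypes and 30 were not. The ETS letters were in 34.5% and 33.3% of them, the NRF1 letters in 6.9% and 13.3%, and the YY1 letters in 13.8% and 23.3%. With 2 and 4 genes behind the NRF1 shares, and 4 and 7 behind the YY1 shares, these are descriptions only.

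Values below are log2 distances of an array from the centre of its probe set, so 0 is a middle level and not an absent one. Levels cannot be compared between genes. In 97.08% of probe sets this centre lies midway between 2 neighbouring arrays, so it is not the median of these 17. Which arrays it was taken over was not established. No source used here names the log base, which was taken as 2. Brightness is not kept in these values, so whether an eosinophil or other marker was detected at all could not be read from them. The medians over all genes lay between -0.05 and 0.13 on 16 arrays. The remaining array, knockout marrow without Dox replicate 3, had a median of 0.22 and an SD over genes of 0.80, against 0.23 to 0.28 on the other marrow arrays and 0.51 to 0.61 on the esophageal arrays. It shares no group with the tissue comparisons but enters their common estimate of the spread. Pirb itself was 0.28 ± 0.39 (SE) lower in knockout than in wildtype esophageal eosinophils, adjusted p = 0.71 in limma, and no genotype difference in it passed the test. Whether its probes lie in the deleted part is not known, so this checks nothing about the labels.

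The main question for these genes was how esophageal eosinophils compared with marrow eosinophils of Dox-fed mice. Most members had lower values in the esophagus in both genotypes, and every member that passed was lower. In wildtype 17 of 68 passed the limma test (Benjamini-Hochberg adjusted p under 0.05 over all 22180 genes) as lower and 0 as higher. Over all genes 7.06% were lower and 8.11% higher. In knockout 17 were again lower and 0 higher, against 6.04% lower and 4.5% higher over all genes. The median member differed by -0.56 in wildtype and -0.58 in knockout, while the medians over all genes were 0.14 and 0.06. Values below 0 were found for 60 members in wildtype and 62 in knockout.

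The test of the mean of both genotypes, with 6 arrays against 6, called 35 members lower and 0 higher, against 12.2% lower and 17.7% higher over all genes. By size, 15 members had a mean difference under -1, 23 lay between -1 and -0.5, and 30 lay above -0.5, with a range from -3.07 (Mrpl42) to 0.24 (Mrpl14). Without fitting any model, all 3 esophageal arrays lay below all 3 Dox marrow arrays for 33 members in wildtype (13.1% of all genes did so) and for 45 in knockout (16%). All 6 esophageal arrays lay below all 6 Dox marrow arrays for 25 members, against 8.04% of all genes.

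**Figure D1:**
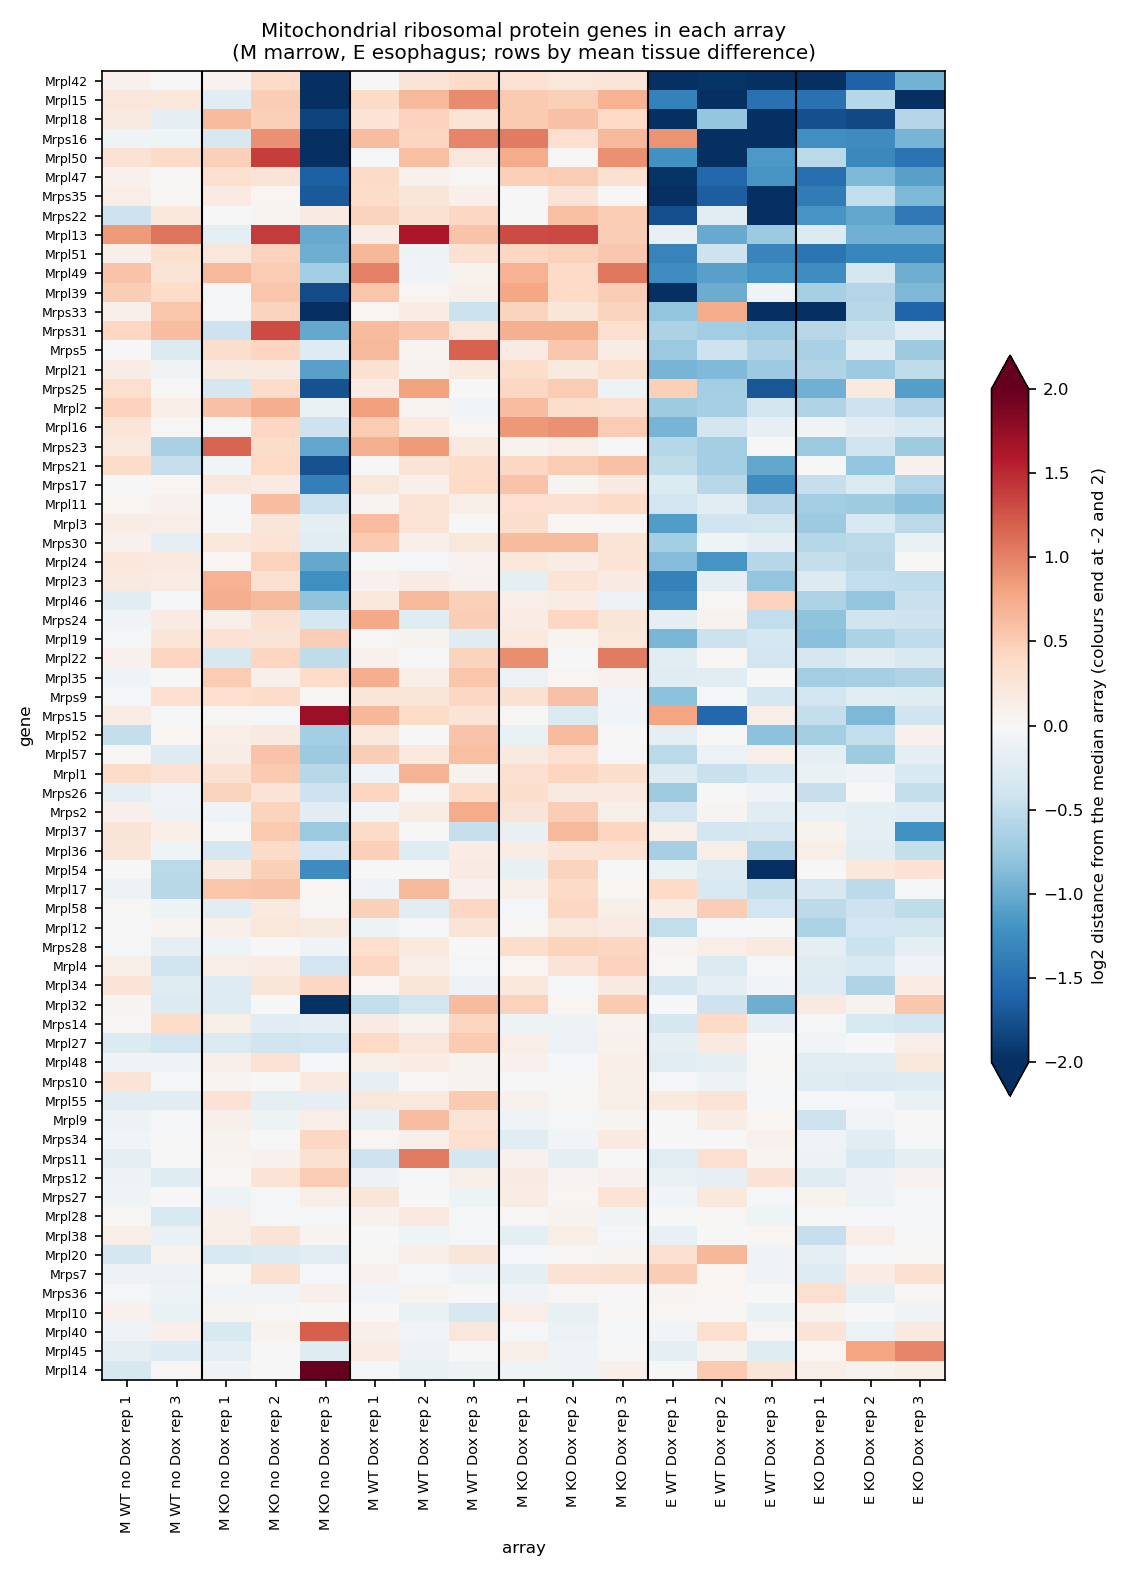
Each row is 1 of the 68 genes and each column 1 of the 17 arrays, ordered by group. Colour is the log2 distance from the centre of the probe set, labelled median array on the scale (colours end at -2 and 2). Rows run from the most negative mean tissue difference, Mrpl42, to the most positive, Mrpl14. The 6 esophageal columns are blue in the upper rows and near white at the bottom, and knockout marrow without Dox replicate 3 stands apart from the other marrow arrays.

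Array by array, the median of the 68 members lay between 0.13 and 0.24 on the 6 Dox marrow arrays and between -0.39 and -0.20 on the 6 esophageal arrays. Between 6 and 15 members were below the array's own median over all genes on Dox marrow arrays, and between 55 and 62 on esophageal arrays. The outlying marrow array resembled the esophageal ones in this respect, with a member median of -0.34 and 59 members below its all-gene median. The remaining marrow arrays without Dox had member medians between -0.0085 and 0.27.

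**Figure D2:**
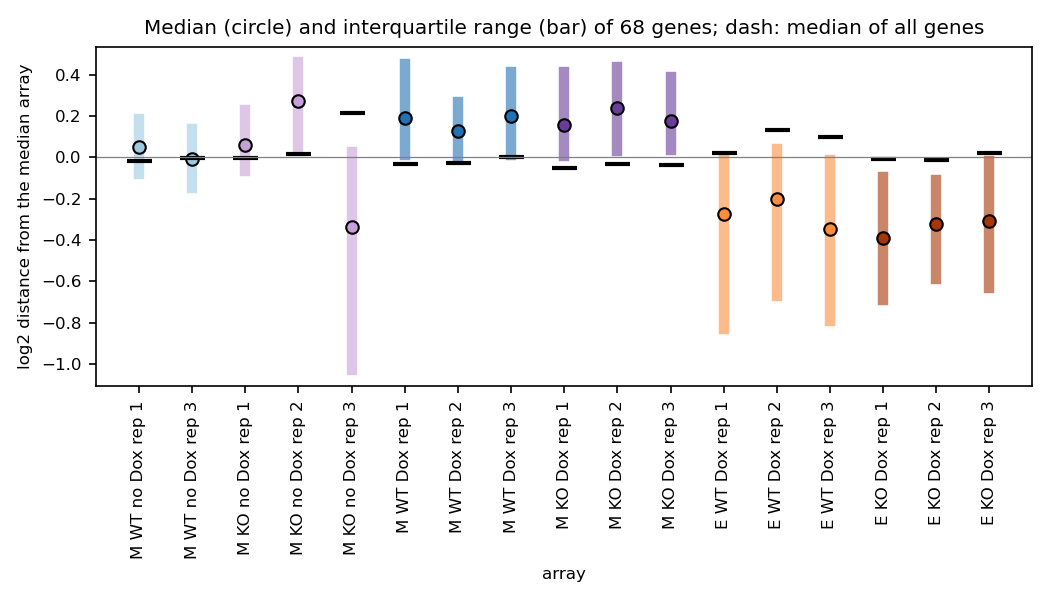
For each array the circle is the median of the 68 members, the coloured bar their interquartile range and the black dash the median of all genes. The log2 scale is the distance from the centre of each probe set, labelled median array. Member medians sit above the dash on the 6 Dox marrow arrays (0.13 to 0.24) and below it on the 6 esophageal arrays (-0.39 to -0.20) and on the outlying marrow array (-0.34).

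The tissue differences of the members in wildtype and knockout rest on separate arrays. Of the 68, 58 were below 0 in both genotypes and 4 above 0 in both, and across members the 2 sets of differences had a Pearson r of 0.80 and a Spearman rho of 0.82. Across all genes r was 0.84, and genes are not independent replicates. The 2 lists of 17 calls shared 9 genes, which is 52.9% of each list. Over all genes, the lists of 1567 lower in wildtype and 1339 lower in knockout shared 925, a larger part of each list than among members. Those 925 are 4.17% of all 22180 genes. The 9 shared members were Mrpl47, Mrps22, Mrpl51, Mrpl49, Mrpl21, Mrpl2, Mrpl16, Mrpl19 and Mrpl35. A further 8 passed in wildtype only and 8 in knockout only, which does not show that these differed between genotypes.

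**Figure D3:**
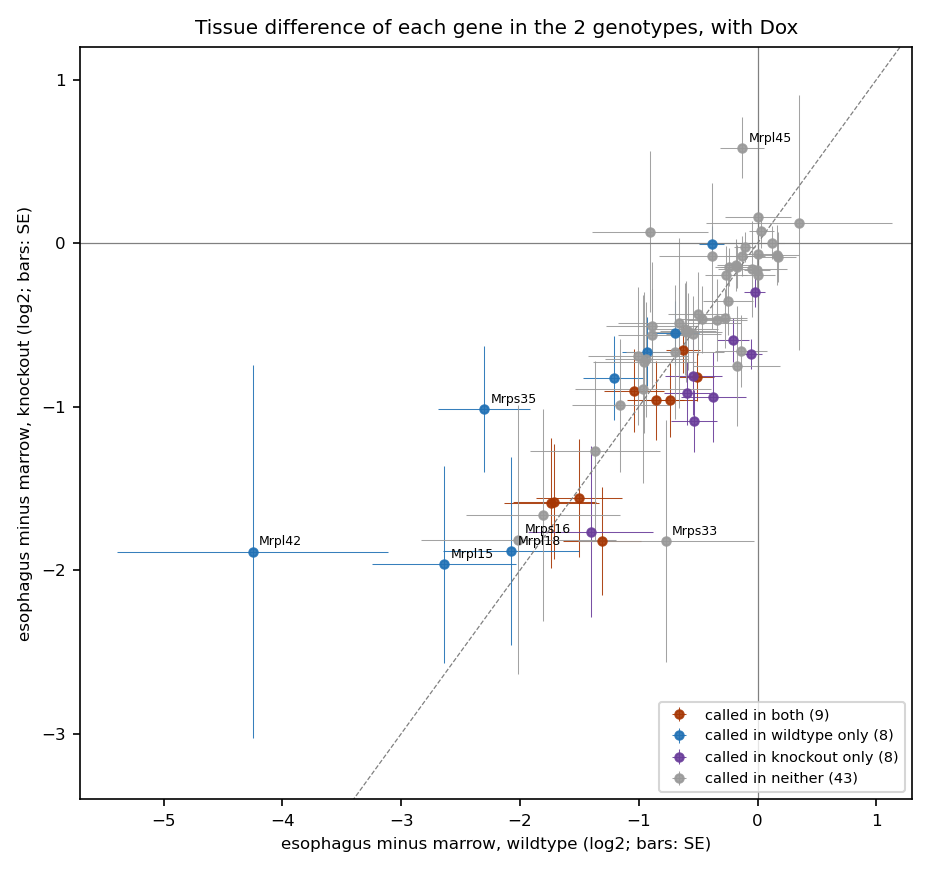
Each point is 1 member, with its esophagus minus marrow difference in wildtype on the x axis and in knockout on the y axis, both log2 with SE bars, coloured by the genotype in which it was called. The dashed line marks equal differences. Most points lie below 0 on both axes, with Mrpl42 far to the left at -4.25 in wildtype against -1.89 in knockout.

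Among homologues of bacterial large subunit proteins, 10 of 28 were lower in wildtype and 10 in knockout, with median differences of -0.51 and -0.55. That is 35.7% in each, against 7.06% of all genes in wildtype and 6.04% in knockout. Mrpl47, a protein at the rim of the tunnel through which the new chain leaves, read 0.38, 0.090 and 0.023 in wildtype Dox marrow and -1.96, -1.57 and -1.19 in wildtype esophagus. Its knockout values were 0.47, 0.50 and 0.31 in marrow and -1.51, -0.90 and -1.08 in the esophagus. The tissues did not overlap in either genotype, and the limma differences were -1.74 ± 0.40 (SE, adjusted p = 0.014) and -1.59 ± 0.40 (adjusted p = 0.021). Mrpl47 rests on 2 probe sets that disagreed in size, with mean differences of -0.34 and -2.99. With the lower-numbered probe set alone the differences were -0.31 in wildtype and -0.36 in knockout, and neither passed (adjusted p = 0.073 and 0.062).

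Mrpl21 varied little within the 4 groups with Dox. Its wildtype values were 0.30, 0.068 and 0.20 in Dox marrow and -0.93, -0.89 and -0.73 in the esophagus, a difference of -1.04 ± 0.25 (adjusted p = 0.018, limma). In knockout they were 0.35, 0.20 and 0.31 against -0.61, -0.73 and -0.50, a difference of -0.90 ± 0.25 (adjusted p = 0.037, limma). All esophageal arrays lay below all Dox marrow arrays. Mrpl2, which lies near the catalytic centre, read 0.82, 0.050 and -0.050 in wildtype marrow and -0.72, -0.67 and -0.37 in wildtype esophagus. In knockout it read 0.61, 0.35 and 0.32 against -0.60, -0.42 and -0.58. Its differences of -0.86 ± 0.24 and -0.96 ± 0.24 passed (adjusted p = 0.032 and 0.021, limma).

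Mrpl16 was highest in knockout Dox marrow, at 0.87, 0.92 and 0.51, against 0.51, 0.20 and 0.035 in wildtype Dox marrow. In the esophagus it read -0.94, -0.37 and -0.16 for wildtype and -0.071, -0.21 and -0.30 for knockout. The wildtype difference of -0.74 ± 0.23 had an adjusted p of 0.044 in limma, and lost its call in 16 of the 24 alternatives run. The knockout difference was -0.96 ± 0.23 (adjusted p = 0.015, limma). Mrpl19 had smaller differences, of -0.51 ± 0.15 in wildtype (adjusted p = 0.037, limma) and -0.82 ± 0.15 in knockout (adjusted p = 0.0032, limma). In knockout its marrow values of 0.20, 0.057 and 0.23 stood apart from -0.83, -0.63 and -0.51 in the esophagus, and the call was kept under all 24 alternatives.

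Mrpl35 read 0.72, 0.13 and 0.55 in wildtype Dox marrow and -0.25, -0.23 and 0.0014 in wildtype esophagus. In knockout both tissues were lower, at -0.12, 0.032 and 0.086 in marrow and -0.69, -0.66 and -0.61 in the esophagus. The tissue difference was nevertheless nearly equal, -0.63 ± 0.14 and -0.65 ± 0.14 (adjusted p = 0.013 and 0.0092, limma). The other large subunit homologues called in 1 genotype included Mrpl15 and Mrpl18 at -2.64 ± 0.60 and -2.07 ± 0.57 in wildtype (adjusted p = 0.014 and 0.031, limma). In knockout the same genes were at -1.97 ± 0.60 and -1.88 ± 0.57 and missed the threshold (adjusted p = 0.057 and 0.055, limma).

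Of the mitochondria-specific large subunit proteins, 3 of 16 were lower in each genotype, with medians of -0.61 and -0.66. This was 18.8% in each, against 7.06% of all genes in wildtype and 6.04% in knockout. Mrpl51 varied little in knockout, where it read 0.41, 0.46 and 0.55 in marrow and -1.46, -1.30 and -1.30 in the esophagus, a difference of -1.82 ± 0.33 (adjusted p = 0.0030, limma). In wildtype it read 0.66, -0.11 and 0.30 against -1.34, -0.42 and -1.32, a difference of -1.31 ± 0.33 (adjusted p = 0.021, limma). Mrpl49 differed by -1.50 ± 0.36 and -1.56 ± 0.36 (adjusted p = 0.017 and 0.014, limma), and its wildtype esophageal arrays were close together at -1.23, -1.09 and -1.18.

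Mrpl42, also of this class, had the widest range of any member. It read 0.014, 0.26 and 0.39 in wildtype Dox marrow and 0.28, 0.23 and 0.24 in knockout Dox marrow. In the esophagus it read -5.02, -1.96 and -5.11 in wildtype and -2.34, -1.62 and -0.95 in knockout, and it was -4.95 on the outlying marrow array. The other marrow arrays without Dox lay between -0.014 and 0.38. The wildtype difference of -4.25 ± 1.14 passed (adjusted p = 0.027, limma), while the knockout difference of -1.89 ± 1.14 did not (adjusted p = 0.36). Over the 17 arrays the genes whose values ran most like those of Mrpl42 were Denr (Pearson r = 0.974), Snrpd2 (0.974), Snhg5 (0.971), Rars (0.946) and the member Mrps35 (0.944). Without the outlying array these values were 0.967, 0.979, 0.962, 0.931 and 0.953. All arrays of a tissue share the step between tissues, so these are descriptions of likeness.

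In the small subunit, 2 of 14 homologues of bacterial proteins were lower in wildtype and 3 in knockout, with medians of -0.50 and -0.52. Of the mitochondria-specific small subunit proteins, 2 of 9 and 1 of 9 were lower, with medians of -0.96 and -0.89, and all 9 were below 0 in both genotypes. Over all genes 7.06% were lower in wildtype and 6.04% in knockout. Counts in sets this small were not tested against these shares. Mrps22 read 0.45, 0.31 and 0.41 in wildtype Dox marrow and -1.75, -0.22 and -1.99 in wildtype esophagus. In knockout it read -0.013, 0.60 and 0.51 against -1.18, -1.04 and -1.43. Its differences were -1.71 ± 0.35 and -1.58 ± 0.35 (adjusted p = 0.0078 and 0.010, limma), the first with 1 esophageal array much closer to marrow than the others.

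Mrps35 read 0.37, 0.24 and 0.10 in wildtype Dox marrow and -2.35, -1.64 and -2.20 in wildtype esophagus, a difference of -2.30 ± 0.39 (adjusted p = 0.0025, limma). Its knockout esophageal arrays were less low, at -1.39, -0.49 and -0.91, and the knockout difference of -1.02 ± 0.39 did not pass (adjusted p = 0.13). Mrps5 differed by -1.21 ± 0.26 in wildtype (adjusted p = 0.0096, limma) and read -0.82 ± 0.26 in knockout (adjusted p = 0.061). Its Dox marrow arrays ranged over 1.13, from 0.051 to 1.18. Mrps16 ran from 0.34 to 1.03 in Dox marrow and was at -2.53 and -2.40 on 2 wildtype esophageal arrays but at 0.90 on replicate 1. Its difference of -2.01 ± 0.82 in wildtype did not pass (adjusted p = 0.10, limma).

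**Figure D4:**
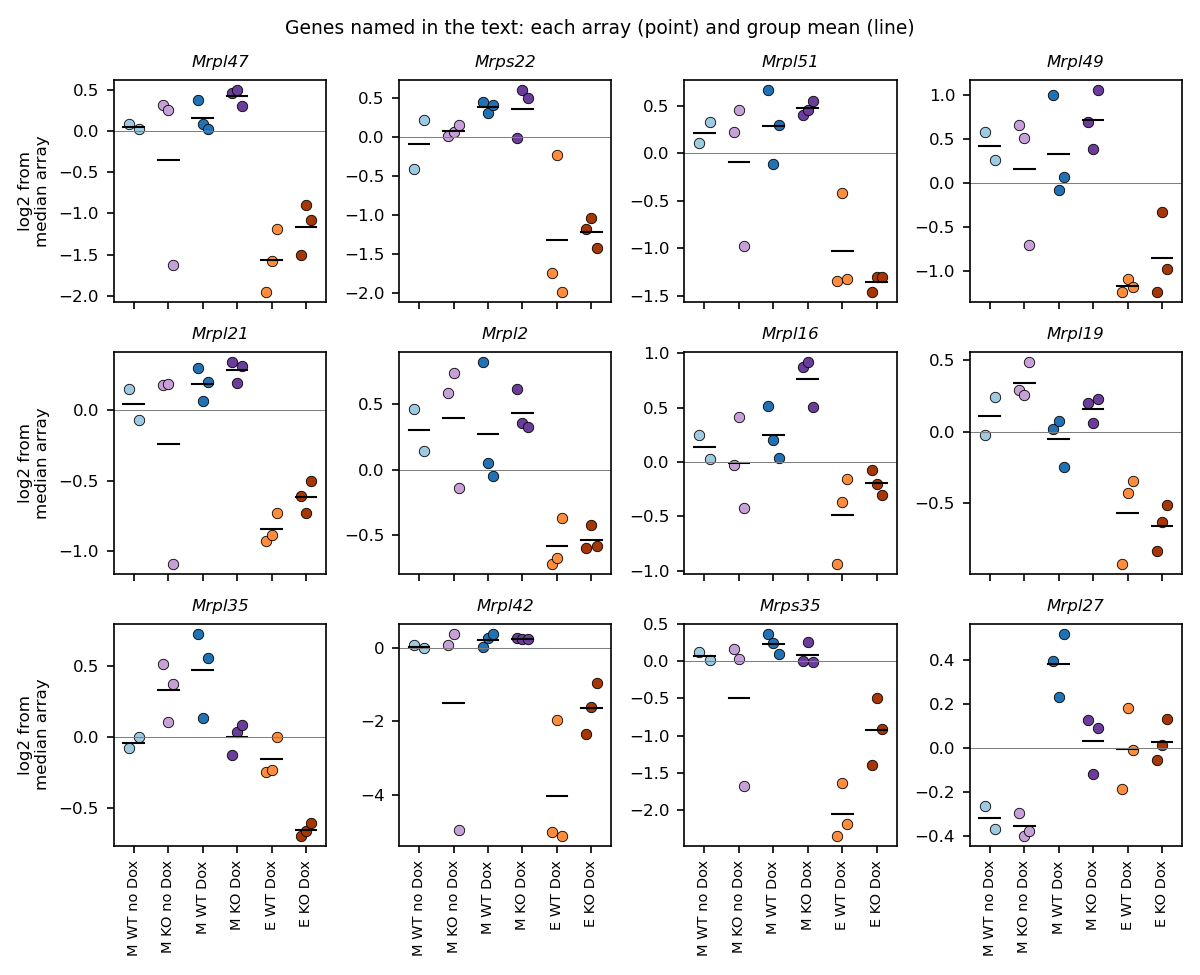
Each panel shows 1 gene, with a point for each array and a line for the group mean in the 6 groups (M marrow, E esophagus, WT wildtype, KO knockout). Values are log2 distances from the centre of the probe set, labelled median array, with a separate y axis for each gene. In the first 9 panels, the members lower in both genotypes, the esophageal means lie below the Dox marrow means. Mrpl42 reaches -5.11 in wildtype esophagus, and Mrpl27 reads 0.23 to 0.52 in wildtype Dox marrow against -0.37 and -0.27 without Dox.

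Not every member was lower. The 3 members with the smallest mean tissue difference were Mrpl38, Mrpl20 and Mrps7, at -0.033 ± 0.099, 0.046 ± 0.11 and 0.048 ± 0.13 (SE). Mrps7 together with Mrps11 and Mrps12 lies around the site where the message is decoded, and 0 of these 3 passed in either genotype, with a largest size of 0.19 among their 6 differences. Mrps11 read -0.41, 1.04 and -0.35 in wildtype Dox marrow, the widest spread of a wildtype Dox marrow group among members (SD 0.82). Of the 6 measured members at the tunnel rim, 1 was lower in wildtype and 2 in knockout. Of the 6 in the central protuberance, 2 were lower in wildtype and 0 in knockout. The shares lower over all genes were 7.06% and 6.04%. With so few genes in a region these counts are descriptions only. Mrpl11 and Mrpl12, of the stalk that binds translation factors, passed in knockout at -1.09 ± 0.19 and -0.59 ± 0.14 (adjusted p = 0.0026 and 0.013, limma), while their partner Mrpl10 was at 0.0031 ± 0.10. Mrps36, which carries the family name but is now known as a part of the oxoglutarate dehydrogenase complex, was at 0.032 ± 0.10 and 0.076 ± 0.10.

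The members' values ran together over all arrays, which include the step between tissues, but little within the esophagus and not within Dox marrow. The median correlation of a member with the mean of the others was 0.694 over 17 arrays and 0.674 without the outlying array. It was 0.197 over the 6 esophageal arrays, with 24 of 68 members below 0. It was -0.053 over the 6 Dox marrow arrays, with 36 below 0. No such value was computed for other genes. Within groups the median member varied more than the median of all genes, to which no filter on brightness was applied. Their median SD was 0.203 and 0.136 in wildtype and knockout Dox marrow (0.11 and 0.0891 over all genes), and 0.298 and 0.192 in wildtype and knockout esophagus (0.17 and 0.118 over all genes).

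The other genes that mitochondria need to make protein were read in the same way, from lists chosen with earlier results of these data known. For every list below, the shares over all genes were 7.06% lower and 8.11% higher in wildtype, and 6.04% and 4.5% in knockout. Of 14 mitochondrial translation factors, 7 were lower in wildtype and 5 in knockout, with medians of -0.52 and -0.53 and 0 higher. Guf1, a back-translocating GTPase, differed by -1.67 ± 0.34 in wildtype and -1.78 ± 0.34 in knockout (adjusted p = 0.0078 and 0.0043, limma), and Lrpprc, which stabilises mitochondrial messages, by -1.37 ± 0.16 and -1.27 ± 0.16 (adjusted p = 0.00015 and 0.00019, limma). Of 21 measured genes that charge mitochondrial tRNAs (aminoacyl-tRNA synthetases and the amidotransferase subunits Qrsl1, Gatb and Gatc), 5 and 7 were lower. Yars2 was lower in both genotypes, at -1.65 ± 0.50 and -2.07 ± 0.50. The medians of the 21 genes were -0.056 and -0.28, and 9 of them were above 0 in wildtype. Of 29 ribosome assembly and rRNA modification factors, 4 and 3 were lower, and 2 were higher in wildtype and 0 in knockout. The GTPase Noa1 was at -1.36 ± 0.22 and -1.75 ± 0.22, while the helicase Ddx28 went the other way, at 1.45 ± 0.28 in wildtype (adjusted p = 0.0052, limma) and 0.92 ± 0.28 in knockout (adjusted p = 0.050, not passing). Of 7 mitochondrial ribosomal proteins whose names the rule does not take, Ptcd3 alone passed in each genotype, at -0.87 ± 0.21 and -0.71 ± 0.21.

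Of 30 import genes 6 and 7 were lower, with medians of -0.46 and -0.58. The outer membrane receptor Tomm70a differed by -2.27 ± 0.23 in wildtype and -1.71 ± 0.23 in knockout. Of 17 genes for mitochondrial transcription and DNA maintenance 5 and 4 were lower, with medians of -0.14 and -0.21. The DNA-binding protein Ssbp1 was at -1.80 ± 0.19 and -1.14 ± 0.19. Of 11 nuclear regulators of mitochondrial genes 2 were lower in each genotype, and 0 were higher in wildtype and 1 in knockout, with medians of -0.15 and 0.014. Among 70 nuclear-encoded genes of oxidative phosphorylation, 12 were lower and 1 higher in wildtype, and 10 lower and 0 higher in knockout. Their medians were -0.64 and -0.57. Cytosolic ribosomal proteins had 11 of 64 lower and 2 higher in wildtype, 10 lower and 2 higher in knockout, with medians of -0.39 and -0.43. The shift below the all-gene median was thus present in sets outside the mitochondrial ribosome, and no difference between sets was tested.

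**Figure D5:**
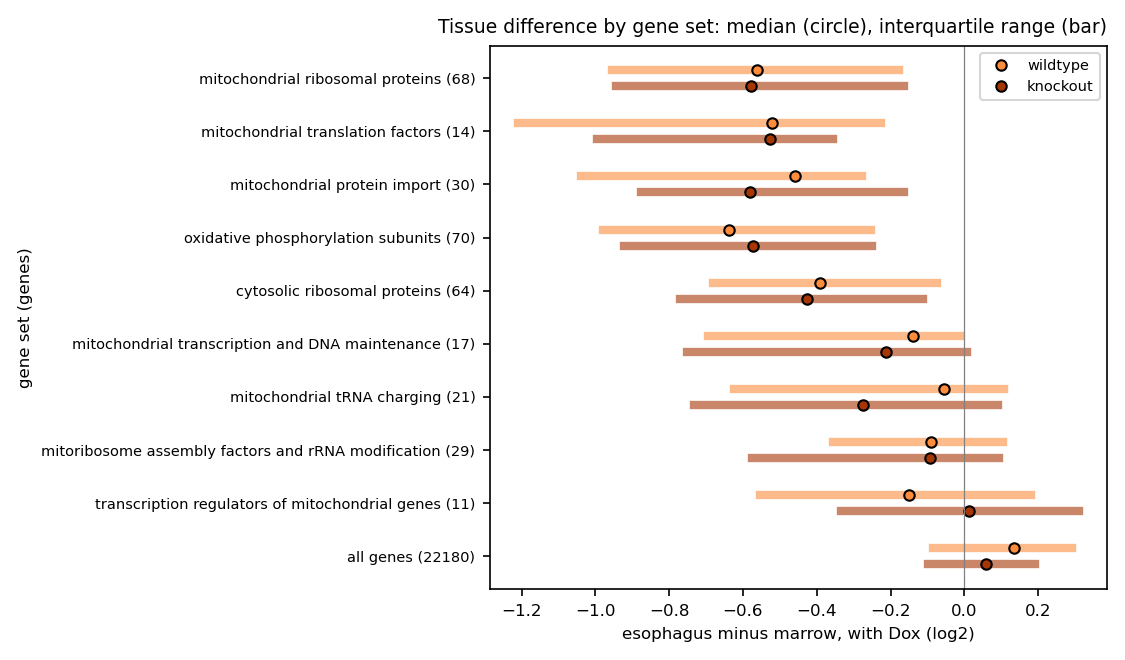
For each gene set the circle is the median and the bar the interquartile range of the esophagus minus marrow differences (log2, Dox-fed mice), in wildtype and knockout, with the number of genes in brackets. Medians of the mitochondrial ribosomal proteins (-0.56 and -0.58), translation factors (-0.52 and -0.53) and oxidative phosphorylation subunits (-0.64 and -0.57) lie to the left of all genes (0.14 and 0.06).

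Several other groups of genes moved with the tissue. All 19 cell cycle genes were lower in the esophagus in both genotypes, with medians of -2.39 and -2.54, and their mean level was 0.15 to 0.43 on Dox marrow arrays and -2.24 to -2.13 on esophageal arrays. Of 15 neutrophil markers 11 were lower in each genotype and 1 higher, with mean levels of -0.055 to 0.33 in Dox marrow and -3.20 to -2.32 in the esophagus. Of 9 mast cell and basophil markers 4 were lower in each, with levels of 0.12 to 0.35 against -1.11 to -0.94. Of 12 monocyte and macrophage markers 3 were lower in wildtype and 6 in knockout, and 1 was higher in each, with levels of 0.28 to 0.65 in Dox marrow and -0.59 to -0.32 in the esophagus. Ly6c2 was at -5.23 ± 0.98 and -3.79 ± 0.98, while Adgre1, which encodes F4/80, was at 1.64 ± 0.32 and 1.68 ± 0.32. Of 10 lymphocyte markers 1 and 2 were lower and 0 higher, with Nkg7 at -3.33 ± 0.57 and -4.10 ± 0.57. Fibroblast and endothelial markers lay between -0.12 and -0.059 in Dox marrow and between 0.17 and 0.52 in the esophagus, with 1 of 10 higher in wildtype and 3 in knockout. Epithelial levels, -0.14 to 0.00027 in Dox marrow and -0.064 to 0.26 in the esophagus, overlapped between tissues. Krt13 was at 0.415 ± 0.22 in wildtype and 0.97 ± 0.22 in knockout, passing in knockout (adjusted p = 0.011, limma). Cdh1 was at -0.87 ± 0.21 and -0.40 ± 0.21, passing in wildtype (adjusted p = 0.0185, limma). Erythroid levels also overlapped, at 0.012 to 0.16 in Dox marrow and -0.46 to 0.11 in the esophagus. Of 11 eosinophil genes 3 were lower and 1 higher in wildtype, and 4 lower and 3 higher in knockout. The granule protein genes Prg3 and Epx were at -5.22 ± 0.52 and -3.50 ± 0.41 in wildtype, and the lipoxygenase gene Alox15 at 2.95 ± 0.59. The part of these groups, and of the wider spread over genes on esophageal arrays, in the lower mitochondrial ribosomal values was not tested. In such pooled RNA, fewer cells of a type and less RNA per cell cannot be told apart.

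The effect of the Pirb deletion on these genes was examined in 3 settings. In esophageal eosinophils 0 of 68 members passed in limma, against 0.347% of all genes, and 7 members (10.3%) had an unadjusted p under 0.05, against 14.7% of all genes. The median member difference, knockout minus wildtype, was -0.012. The smallest p belonged to Mrps28, a small subunit protein, which read 0.061, 0.13 and 0.18 in wildtype and -0.17, -0.43 and -0.20 in knockout. These arrays did not overlap, and the difference was -0.39 ± 0.094 (adjusted p = 0.12). Mrpl45, which binds the ribosome to the inner membrane, read -0.18, 0.071 and -0.25 in wildtype and 0.044, 0.78 and 0.97 in knockout. The groups overlapped at the lowest knockout array, and the difference was 0.72 ± 0.19 (adjusted p = 0.14, limma). Mrpl35 was at -0.49 ± 0.14 (adjusted p = 0.18) and Mrps35 at 1.14 ± 0.39 (adjusted p = 0.24, limma). Without the outlying marrow array 2 members passed, Mrps28 as lower and Mrps35 as higher, which is 2.94% of members and no more than the 3.44% of all genes called in that fit. Without knockout esophagus replicate 1 Mrpl45 passed as higher, among 22 genes called.

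In marrow eosinophils with Dox 0 members passed, and 0% of all genes did. Unadjusted p-values under 0.05 were found for 4 members (5.88%) and 407 genes (1.83%). The smallest belonged to Mrpl35 (-0.47 ± 0.14), Mrpl27 (-0.35 ± 0.11), Mrps28 (0.23 ± 0.094) and Mrpl16 (0.52 ± 0.23), each with an adjusted p of 1.0 in limma. Mrps28 was thus higher in knockout marrow and lower in knockout esophagus, in values that did not pass. In marrow without Dox 0 members and 0% of all genes passed, with 3 members (4.41%) and 1809 genes (8.16%) at an unadjusted p under 0.05. Ranked by p the first were Mrps12 (0.44 ± 0.16), Mrpl17 (0.71 ± 0.28), Mrpl35 (0.37 ± 0.16) and Mrpl14 (1.50 ± 0.87), all with an adjusted p of 0.55 in limma. The value for Mrpl14 comes from the outlying array, which read 4.14 against -0.069 and -0.016 on the other knockout arrays and -0.32 and 0.020 in wildtype.

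Dox was compared with no Dox within marrow, with 3 against 2 arrays in wildtype and 3 against 3 in knockout. In both genotypes 0 members passed in limma, against 0.0225% of all genes in each. An unadjusted p under 0.05 was found for 5 members (7.35%) and 957 genes (4.31%) in wildtype. In knockout it was found for 8 members (11.8%) and 6053 genes (27.3%). The median member difference, Dox minus no Dox, was 0.17 in wildtype and 0.24 in knockout, against -0.0050 and -0.13 over all genes. The knockout median dropped to 0.028 without the outlying array. The gene nearest to the threshold was Mrpl27, of the peptidyl transferase region. It read -0.27 and -0.37 in wildtype marrow without Dox and 0.39, 0.23 and 0.52 with Dox, with no overlap, a difference of 0.70 ± 0.12 (adjusted p = 0.090). It passed in wildtype once the outlying knockout array was left out of the fit. In knockout it read -0.30, -0.40 and -0.38 without and 0.13, -0.12 and 0.088 with Dox, again without overlap, a difference of 0.39 ± 0.11 (adjusted p = 0.15, limma). Mrpl55 and Mrpl35 followed in wildtype at 0.53 ± 0.15 and 0.51 ± 0.16. In knockout Mrps28 read -0.091, -0.0025 and -0.071 without and 0.36, 0.44 and 0.43 with Dox, a difference of 0.47 ± 0.094 (adjusted p = 0.11, limma). Mrpl16 and Mrpl22 were at 0.78 ± 0.23 and 0.78 ± 0.27.

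Tests of whether the tissue or the Dox difference itself changed with genotype also called 0 members, against 0.00451% of all genes for tissue and 0% for Dox. At an unadjusted p under 0.05 they counted 5 members (7.35%) and 1099 genes (4.95%) for tissue, and 1 member (1.47%) and 1391 genes (6.27%) for Dox. For tissue the smallest p was that of Mrps28, whose esophagus minus marrow difference was -0.056 ± 0.094 in wildtype and -0.68 ± 0.094 in knockout, an interaction of -0.62 ± 0.13 (adjusted p = 0.40, limma). Mrpl45, Mrpl27 and Mrps35 followed at 0.71 ± 0.26, 0.38 ± 0.15 and 1.29 ± 0.55. For Dox it was Mrpl35, at -0.84 ± 0.21 (adjusted p = 0.66, limma). The medians over members were 0.046 and -0.0031.

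The counts of tissue calls moved with single arrays. Of the 18 calls behind the 9 members lower in both genotypes, those most often lost over the 24 alternatives were Mrpl16 (16 times) and Mrpl19 (8 times) in wildtype and Mrpl21 (8 times) and Mrpl47 (6 times) in knockout. Without the outlying marrow array, 33 members (48.5%) were called in wildtype (32 lower and 1 higher, Mrpl14) and 28 (41.2%) in knockout (27 lower and 1 higher, Mrpl45), while the calls over all genes, in either direction, rose to 36.5% and 18.8%. Without wildtype Dox marrow replicate 1 the wildtype count was 4 (5.88% of members), near the 6.02% of all genes called in either direction. It was 11 (16.2%) without Dox marrow replicate 3 or esophagus replicate 1 of wildtype, against 8.96% and 19.1% of all genes. The knockout count was 9 without Dox marrow replicate 1 or 2 or esophagus replicate 1 or 3, and 10 without Dox marrow replicate 3, which is 13.2% and 14.7% of members, against 6.93% to 7.5% of all genes in these fits. The median member difference stayed between -0.66 and -0.43 in wildtype and between -0.64 and -0.58 in knockout over all arrays left out in turn.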

How the data were processed

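The labels' protocols state that RNA was purified with RNeasy, amplified with Nugen Ovation One-Direct and labelled with the Encore Biotin Module. Per the submitters' processing notes, Affymetrix Expression Console was used (version not given). The deposited values are log2-like expression values that the authors centred per probe set: 2 neighbouring values around 0 are equal and opposite, within 2e-05, in 97.08% of probe sets. Neither the log base nor a scaling step is given in the sources used here. Of 33793 probe sets, 23521 had 1 gene symbol, 1814 several and 8458 none in the platform annotation. Probe sets of a gene were averaged, giving 22180 genes, of which 21994 had an Entrez identifier in RefSeq. All 17 arrays entered limma 3.58.1 (R 4.3.3) with a mean for each of 6 groups, eBayes, two-sided tests and Benjamini-Hochberg adjustment over all genes, and a threshold of 0.05. The fit was tested on simulated data. Errors with differences are SEs of that fit.

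Members and gene lists were chosen with earlier results of these data known. Genes were named by rule: members passing in both genotypes, the passing members or else the 4 of smallest p in each other comparison, the 3 smallest tissue differences, the 3 widest ranges in Dox marrow, up to 4 passing genes of each other list, and the 5 genes most like the member with the largest tissue difference. Others were named after their values were seen. The number of arrays limits the precision. Alternatives were quantile normalization, median centring, 1 probe set per gene, array weights, robust eBayes, a replicate block, only the groups compared, and each array left out.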

Additional observations from a re-analysis of the deposited data

How the results depend on the processing

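The members' median tissue difference stayed negative in wildtype, in knockout and in their mean under all 24 alternatives run. No single call among the 18 of the 9 members lower in both genotypes was reversed, and 4 kept their call throughout (Mrpl19, Mrpl35, Mrpl51 and Mrps22 in knockout). Array weights raised the count of members called between tissues to 31 (45.6%) in wildtype and 39 (57.4%) in knockout, with 37.0% and 27.6% of all genes called, and fitting only the groups compared gave 35 (51.5%) in knockout, with 20.1% of all genes. Array weights also called 3 members between genotypes in the esophagus (Mrpl42, Mrps28 and Mrps35), which is 4.41% against 3.87% of all genes. For Dox in wildtype array weights called 1 member (Mrpl27), which is 1.47% against 0.248% of all genes. For Dox in knockout array weights called 2 members (Mrpl27 and Mrps28), which is 2.94%. That is a smaller share than over all genes, where 3331 of 22180 were called. Quantile normalization called 1 for Dox in wildtype (Mrpl27) and 1 in knockout (Mrps28), each 1.47% of members, against 0.568% and 1.05% of all genes. With each array left out in turn the counts ranged from 4 to 33 for tissue in wildtype and from 9 to 28 in knockout. They ranged from 0 to 2 for genotype in the esophagus and from 0 to 1 for Dox in each genotype. The Dox calls were Mrpl27 in wildtype without the outlying array and Mrps31 in knockout without the no Dox replicate 2. Each is 1.47% of members, against 0.149% and 0.23% of all genes in those fits. The median Dox difference in knockout ranged from 0.0284 to 0.359 with an array left out and was -0.0134 with array weights. The median interaction was -0.0971 for tissue after quantile normalization and -0.176 for Dox with array weights. Median centring shifted the median of all genes in the wildtype tissue difference from 0.14 to 0.032. Same-numbered arrays of different groups had correlations of their deviations from -0.0999 to 0.231. Of 12 Dox arrays, 4 correlated best with their own number in the other tissue. Whether same-numbered arrays came from the same mice is not known, and with so few arrays in a group these correlations cannot decide it. The replicate block gave counts of 18 (26.5%) in wildtype, 14 (20.6%) in knockout and 35 (51.5%) in the mean. Of all genes it called 16.4%, 10.6% and 31.4%. The planned filter on dim probe sets was not run, because centred values keep no brightness. The causes of these changes were not tested.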

Other observations

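Probe sets that carry the name of a mitochondrial ribosomal protein together with that of another gene were outside the averaged values. Among those of the 7 genes left out, the probe set of Mrpl44 and Wdfy1 had esophagus minus marrow differences of -0.50 in wildtype and -0.86 in knockout, and that of Mrpl30 and Gm6238 had -0.63 and -0.33. The probe set of Mrpl43 and Twnk, the mitochondrial helicase, had -0.20 and -0.89. Those of Mrpl53 and Ccdc142 had 0.52 and 0.17 in one case and 0.16 and -0.30 in the other, the former being the largest value in the opposite direction. Those of Mrpl33 with Gm38424 and with Babam2 had 0.026 and 0.029, and -0.11 and -0.052. Those of Mrps6 and Slc5a3, and of Mrpl41 and Dph7, were near 0, at 0.079 and -0.0021 and at 0.046 and -0.065. Which gene of each pair gave the signal cannot be read from such a probe set.

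The 7 members with 2 probe sets show how far a gene's value depends on the probe set. Mean tissue differences were -0.34 and -2.99 for Mrpl47, -1.64 and -0.39 for Mrps5, -0.38 and -1.27 for Mrps17, and -1.39 and -2.43 for Mrps16. For Mrpl36 they were -0.12 and -0.81, for Mrpl12 -0.31 and -0.49, and for Mrpl10 -0.061 and 0.19, the only pair of opposite sign.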
